A study of Mus musculus with 36 samples.

Results

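The comparison described here set primary mouse hepatocytes that overexpressed glucokinase (GK) together with mouse glucokinase regulatory protein carrying leucine at residue 446 (GKRP-446L) against hepatocytes of the same animals that overexpressed GK together with the proline form (GKRP-446P). Its members were the 6 RNA-sequencing samples labelled Ad-mL + GK and Ad-mP + GK, 3 of each, out of 36 in the series, and they were chosen by treatment label and paired by hepatocyte preparation. The preparations came from 3 female GCKR-P446L-EMI-B6N mice aged 14 weeks, of which mouse 1 and mouse 2 had the Gckr-446L genotype and mouse 3 the Gckr-446P/L genotype. The submitters describe these hepatocytes as GKRP-deficient. Cells received adenoviral vectors after attachment, were cultured with 10 nM insulin and 10 nM dexamethasone, and were incubated for 4 h with 25 mM glucose before harvest, in both groups alike. Other groups used below were untreated cells and cells with the GK vector alone (6 cultures each, 2 per mouse), the same mouse GKRP vectors at endogenous GK (3 each), and human GKRP-446P or GKRP-446L with GK (3 each). The model is limited to cultured cells of 3 animals that differ in genotype, and each animal gave 1 culture per GKRP vector.

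GK phosphorylates glucose and is the hexokinase that sets the rate of glucose uptake by the liver. GKRP binds GK, inhibits it and holds it in the nucleus, and glucose and fructose 1-phosphate release it. Glucose phosphates made downstream of GK activate the transcription factor ChREBP (encoded by Mlxipl), which with its partner Mlx binds carbohydrate response elements near genes of glycolysis and lipogenesis. The leucine form at residue 446 is the minor form of a common human GKRP variant known for its association with raised triglycerides and lower fasting glucose.

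The residue that differs between the vectors is encoded in the reference genome by a proline codon. In GRCm39 the codon lies at chr5:31466275-31466277 on the plus strand, in exon 15 of 19 of the Gckr transcript that encodes 623 residues. The reference coding sequence around it, which runs from exon 15 into the next exon and is shown with the codon in capitals because it is the site of the compared change, reads as follows.
Gckr: gggcagtccttgCCAgctcctctaaag
The sequences of the vectors themselves were not used here, so the leucine codon is not shown. Promoter stretches of Pklr and Txnip, 2 genes that rose, are shown because they hold letters of the carbohydrate response element motif, 2 E-box-like sites around a short spacer with 10 fixed letters, with the motif span in capitals. The Pklr stretch lies at chr3:89043754-89043783 and matches all 10 fixed letters, and the Txnip stretch lies at chr3:96465182-96465211 and has 1 mismatch (both GRCm39, plus strand).
Pklr: ggacgcCACGGGGCACTCCCGTGgttcctg
Txnip: actgtgCACGAGGGCTGCACGAGcctccag
Promoter windows of 300 bases (RefSeq, GRCm38.p6) were found for 13 of the 22 genes that rose, and the motif, which reads the same on both strands, was present with at most 1 mismatch in 3 of the 13 (Pklr, Txnip and Rgs16, 23.1%), against 1.08% of the 27025 genes in the table and 1.82% of the genes tested that had a window. With all 10 letters it was present in 1 of the 13 (7.69%) and in 0.0518% of the table. None of the 3 genes that fell, all of which had a window, held it with at most 1 mismatch. A match is a description of letters in the window and not evidence of a bound site.

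The 6 libraries held 5222692 to 6915637 reads assigned to transcripts, with a median of 5804884, within the range of 3924674 to 10046158 over the 36. Mitochondrial transcripts took 5.08% to 7.51% of the reads. The hepatocyte label was met by its markers, since 10 of 10 were detected and their summed level was 95500 to 122000 CPM (reads scaled to library size) with GKRP-446P and 88700 to 128000 CPM with GKRP-446L. Summed macrophage markers (13 of 13 tested) ranged from 283 to 335 and from 294 to 346 CPM, respectively. Summed endothelial markers (10 of 10 tested) were 78.9, 110 and 154 CPM with GKRP-446P and 120, 115 and 168 CPM with GKRP-446L in mice 1, 2 and 3, and 10 of 10 had a fitted difference above 0. None of the tested marker genes of the 5 cell types was called, and the part of non-hepatocyte RNA in the results was not tested. Stellate markers (5 of 10 tested) summed to 25.6 to 146 and 41.8 to 153 CPM. Cholangiocyte markers (2 of 7 tested) summed to 16.7 to 177 and 15.6 to 155 CPM, with Cftr at 0 in the GKRP-446P samples. The other markers of these 2 types were too low to be tested and could not be called. In bulk RNA, more cells of a type and more RNA per cell cannot be told apart. The effective transcript lengths that Salmon estimated were more spread in GK+mL of mouse 1 (SD of log2 length relative to the mean library 0.999) and mouse 3 (0.75) than in the other 4 libraries (0.366 to 0.632), and their part in the results was not tested beyond a fit with these lengths as an offset, given below.

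Transcripts of the GKRP vector were lower with the leucine form in each animal, and the difference did not pass the test across all genes. Gckr (ENSMUSG00000059434, chr5:31454787-31484658) was at 14778, 14382 and 20146 CPM in the GKRP-446P samples of mice 1, 2 and 3 and at 10943, 9010 and 14485 CPM in the GKRP-446L samples, against 39.2 to 70.7 CPM in untreated cells. It was lower with GKRP-446L in 3 of 3 mice, at 69.4% of the GKRP-446P level on average, and the log2 differences within mice 1, 2 and 3 were -0.43, -0.68 and -0.48 (mean -0.53 ± 0.13, SD, n = 3). Over samples the groups overlapped with edgeR's TMM scaling of library size, the one used throughout, by mouse 3 with GKRP-446L and mouse 2 with GKRP-446P, and did not overlap with RLE scaling (by median ratios), where the levels were 14621, 14445 and 20095 CPM against 10931, 8989 and 14397 CPM (exact permutation p = 0.1). With TMM scaling the two-sided exact permutation test of 3 against 3 gave p = 0.2 (smallest possible 0.1), the exact test of the 3 signs gave p = 0.25, its smallest possible value, and the fit across all genes gave a log2 difference of -0.52 (SE 0.55, adjusted p = 0.771, edgeR). The spread in that fit also takes in the other conditions. Among them is 1 culture with the GK vector alone that had Gckr at 1420 CPM (by library total). That culture's part in the SE was not tested. Neither exact test could pass 0.05 with 3 animals, so the lower vector transcript level with GKRP-446L stands beside every result below, and its part in them was not tested. The authors' TPM values, which divide by effective length, gave another picture, with Gckr at 6624, 10762 and 65281 TPM with GKRP-446P and 7811, 9457 and 12982 TPM with GKRP-446L (exact permutation p = 0.8). Of the Gckr reads, 74.4% to 93.3% were assigned to ENSMUST00000201166. A second transcript, ENSMUST00000202456, received 4494 and 3283 reads in GK+mL of mouse 1 and mouse 3 and 0 in the other 4 libraries. The labels and the series description name different mouse Gckr transcripts for the vector.

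With GKRP-446L, 22 genes rose and 3 fell relative to GKRP-446P among 12176 genes tested. Of the 22 raised genes, 8 were in the list of glucose-responsive genes, among them Txnip, Rgs16, Klf10, Pklr, Tkfc and Acly. For these 6 genes the mean GKRP-446P levels lay near or below those of untreated cells, and their GKRP-446L levels lay between those and the level with GK alone. Called genes had an adjusted p below 0.05 (edgeR quasi-likelihood F test with mouse as a block, Benjamini-Hochberg adjustment over all genes tested) and were changed by a factor of 1.3 or more upward, or to 0.7 or less of the GKRP-446P level. The raised genes were 0.181% and the lowered genes 0.0246% of those tested, while 595 genes (4.89%) were higher and 549 (4.51%) lower at an unadjusted p below 0.05. Each of the 22 was higher in 3 of 3 mice, as were 12.2% of all genes tested, and each of the 3 was lower in 3 of 3 mice, as were 11.5%. The 3 GKRP-446L samples lay above the 3 GKRP-446P samples for 15 of the 22, and for 2.3% of all genes tested. They lay below for 2 of the 3 lowered genes, and for 2.51% of all genes tested.

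The count depended on the pairing and on each animal. Without the mouse block 2 genes passed, Tkfc and Krt8-ps, and the fitted direction was the same for all 25. The common biological coefficient of variation was 0.231 with the block and 0.323 without it. Leaving out mouse 1, 2 or 3 left 9, 1 or 2 raised genes, respectively, and all 25 kept their direction in each of the 3 fits. DESeq2 with the mouse term called 66 raised and 21 lowered genes, whereas edgeR with transcript-length offsets, or on the 6 samples alone, called 0. In these last fits 1489 and 281 genes, respectively, had an unadjusted p below 0.05.

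**Figure D1:**
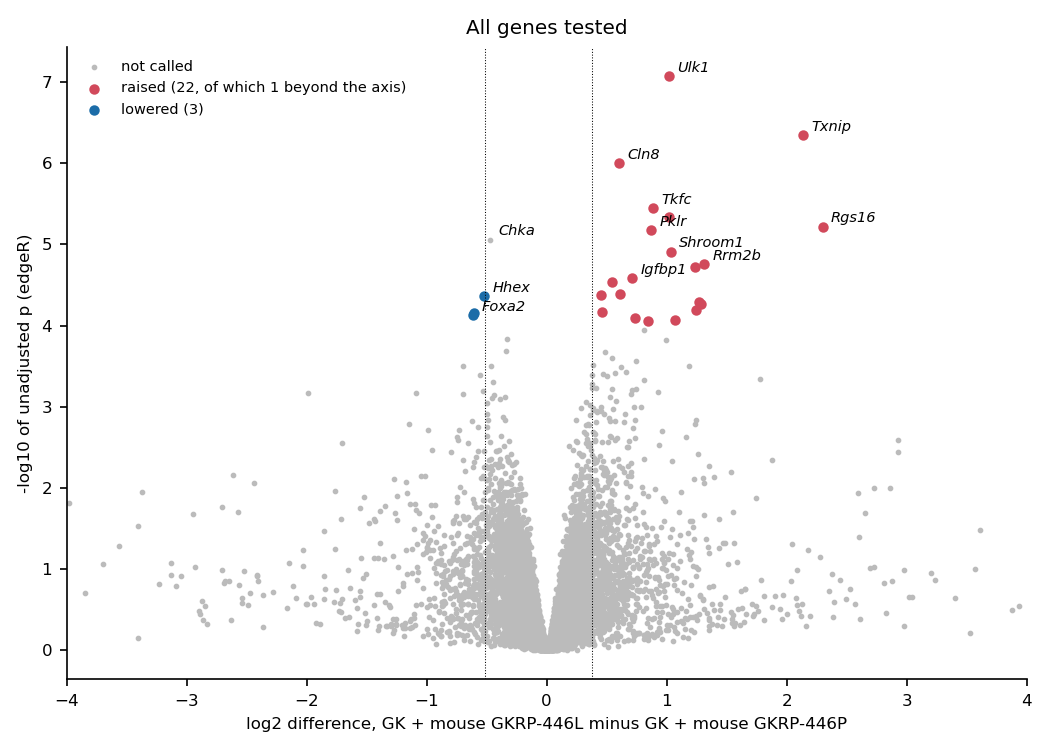
Fitted log2 difference of GK + mouse GKRP-446L minus GK + mouse GKRP-446P (x axis) against -log10 of the unadjusted edgeR p (y axis), 1 point per gene. The 22 raised genes are red and the 3 lowered blue, dotted lines mark the fold thresholds of 1.3 and 0.7, and 133 genes beyond ±4, among them the raised Krt8-ps, are off the axis.

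Among genes known as glucose-sensing outputs, Txnip showed one of the largest differences. Txnip, an arrestin-like inhibitor of glucose uptake and a classical ChREBP target (chr3:96465267-96469201), was at 13.0, 37.4 and 37.7 CPM with GKRP-446P and at 53.7, 152 and 192 CPM with GKRP-446L in mice 1, 2 and 3. Every GKRP-446L sample was above every GKRP-446P sample, and the fold change was 4.39 (log2 2.13, SE 0.30, adjusted p = 0.00272). With GK alone Txnip was at 98.0, 274 and 344 CPM, above GKRP-446L in each animal. Rgs16, a GTPase-activating protein for G protein alpha subunits whose hepatic transcript follows glucose, was at 6.89, 7.55 and 2.84 CPM against 20.7, 45.1 and 23.2 CPM. These groups did not overlap either, and the fold change was 4.92 (log2 2.30, SE 0.38, adjusted p = 0.0102). Klf10, a Kruppel-like repressor induced by glucose, was at 16.8, 16.5 and 29.0 CPM against 33.6, 42.6 and 71.9 CPM, again without overlap. Its fold change was 2.36 (log2 1.24, SE 0.23, adjusted p = 0.019). Arrdc4, the arrestin paralogue of Txnip, was at 4.59, 4.92 and 5.30 CPM against 6.10, 12.2 and 18 CPM with a log2 difference of 1.24 (SE 0.34), but it did not pass the adjustment (adjusted p = 0.195).

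Some genes of glucose and fructose breakdown also rose. Pklr, the liver pyruvate kinase, was at 57.4, 47.2 and 61.9 CPM with GKRP-446P and at 99.7, 84.7 and 121 CPM with GKRP-446L, without overlap (fold change 1.83, adjusted p = 0.0102). Tkfc, the triokinase that phosphorylates glyceraldehyde in fructose breakdown, was at 188, 193 and 169 CPM against 298, 383 and 339 CPM (fold change 1.85, adjusted p = 0.0102), and it was also called without the mouse block (adjusted p = 0.0296). Its animals differed little within each group. Pfkfb3, a kinase that makes the glycolytic activator fructose 2,6-bisphosphate, was at 30.2, 64.6 and 59.6 CPM against 89.6, 101 and 110 CPM (fold change 2.02, adjusted p = 0.0102).

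Of 19 glycolysis genes tested, 3 rose (0.181% of all genes did), Pklr and Pfkfb3 among them, and none fell. The list median was 0.11 against 0.01 over all genes tested, with -0.198, 0.19 and 0.305 in mice 1, 2 and 3. General glycolytic enzymes were not called: Gapdh differed by -0.25, Eno1 by 0.11, Ldha by -0.05 and Pgk1 by -0.38 on the log2 scale (adjusted p from 0.64 to 0.88). In the list of fructose and pentose phosphate metabolism, 2 of 14 tested rose (0.181% of all genes did), Tkfc among them. Its median was 0.13, with -0.145, 0.206 and 0.204 in mice 1, 2 and 3. Slc2a2, the liver glucose transporter GLUT2, was at 8.58, 35.6 and 19.3 CPM against 33.8, 60.7 and 33.3 CPM. It was higher in 3 of 3 mice with a log2 difference of 1.18 (SE 0.28), but the groups overlapped and the adjusted p was 0.104. G6pc1, the catalytic subunit of glucose 6-phosphatase, was at 1.23, 3.86 and 1.51 CPM against 2.61, 7.70 and 8.45 CPM (log2 difference 1.54, SE 0.51, adjusted p = 0.346). The other 10 gluconeogenesis genes tested were not called either.

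**Figure D2:**
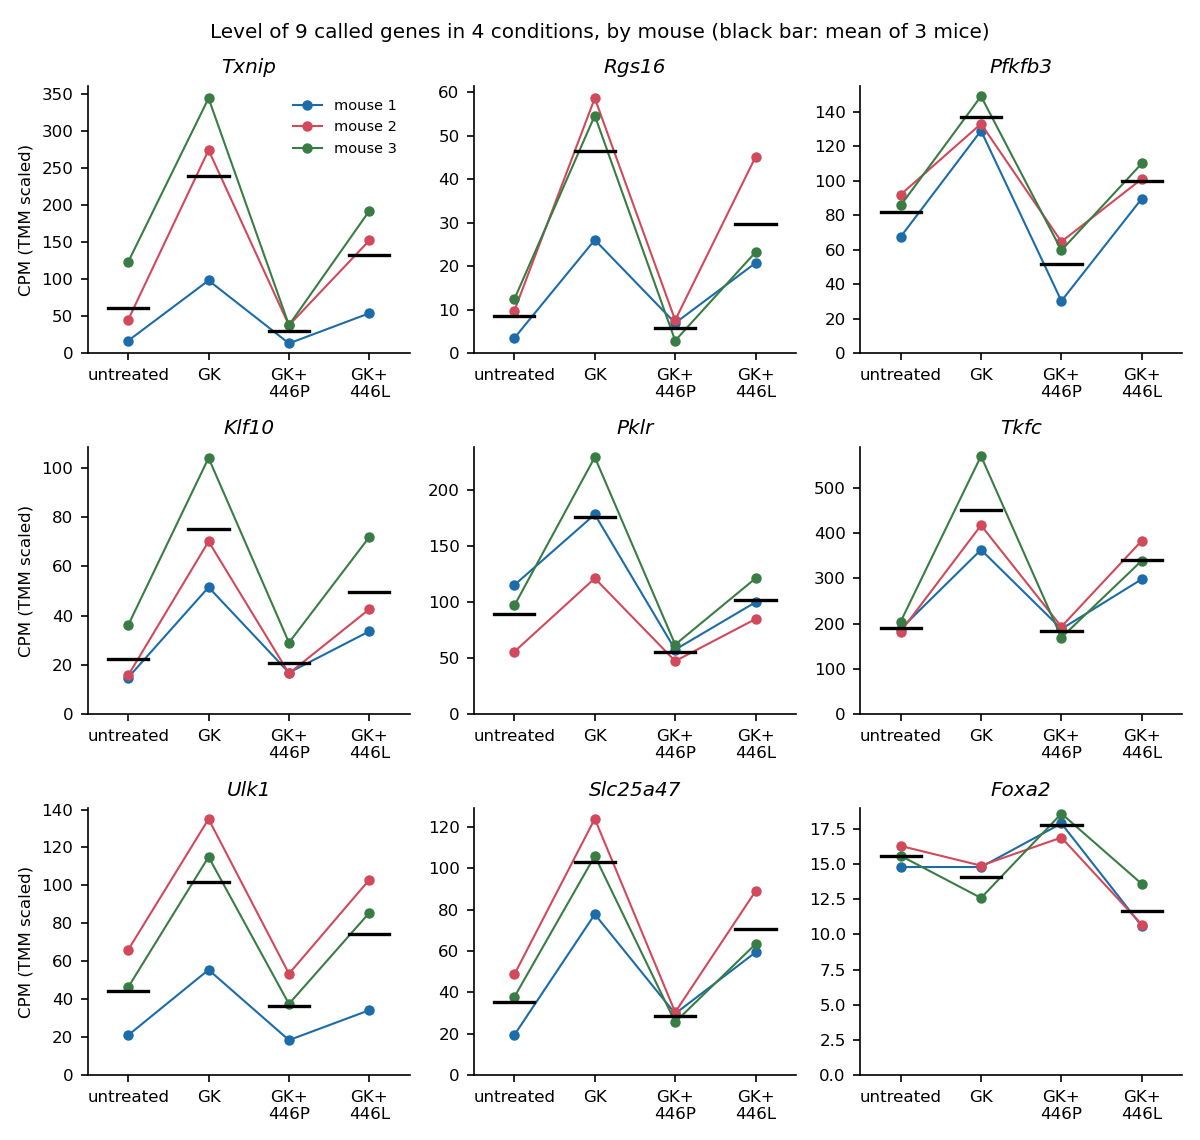
Level in CPM (y axis, from 0) of 9 called genes in untreated cells, with GK alone, with GK and mouse GKRP-446P, and with GK and mouse GKRP-446L (x axis), with 1 line per mouse and black bars for means of 3 mice. For the 8 raised genes each line falls from GK alone to GKRP-446P and is higher again at GKRP-446L, and for Foxa2 each line is lowest at GKRP-446L except in mouse 3, where GK alone is lowest.

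Of the lipid synthesis genes 1 rose. Acly, which makes cytosolic acetyl-CoA from citrate, was at 153, 300 and 269 CPM with GKRP-446P and at 278, 450 and 465 CPM with GKRP-446L. The groups overlapped because mouse 1 was lower in both, the difference within each animal was 0.86, 0.59 and 0.79 on the log2 scale, and the fold change was 1.66 (adjusted p = 0.0404). Of 19 fatty acid and triglyceride synthesis genes tested, 17 had a difference above 0 (51.5% of all genes tested did) and 1 was raised (0.181% of all genes). The list median was 0.25, with medians of 0.23, 0.26 and 0.20 in mice 1, 2 and 3. Lists of other kinds had fitted medians near this one: 0.26 for the endothelial markers (10 of 10 above 0), 0.22 for the macrophage markers (11 of 13) and 0.245 for the circadian clock genes (17 of 19, with 1 raised). Their medians varied more between mice 1, 2 and 3. They were 0.548, 0.116 and 0.132 for endothelial markers, -0.06, 0.177 and 0.089 for macrophage markers, and 0.491, 0.144 and 0.08 for clock genes. Fasn, the fatty acid synthase, was at 180, 310 and 356 CPM against 363, 407 and 593 CPM (log2 difference 0.68, SE 0.23, adjusted p = 0.355). Scd1, the stearoyl-CoA desaturase, was at 2140, 3280 and 2340 CPM against 3640, 3650 and 2690 CPM, and its difference of 0.36 (SE 0.09, adjusted p = 0.17) came mostly from mouse 1. Mlxipl itself, which encodes ChREBP, was at 85.2, 66.5 and 70.4 CPM against 99, 79.6 and 86.2 CPM (log2 difference 0.26, 95% interval -0.06 to 0.58, adjusted p = 0.608).

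Mitochondrial carriers and an autophagy kinase were among the raised genes that GK alone also raised. Slc25a47, a liver mitochondrial carrier, was at 29.7, 30.4 and 25.6 CPM against 59.4, 89.0 and 63.4 CPM, without overlap (fold change 2.43, adjusted p = 0.0348). Slc25a44, a carrier of branched-chain amino acids, was at 40.4, 59.5 and 50.0 CPM against 66.4, 84.8 and 76.5 CPM (fold change 1.52, adjusted p = 0.031). The other 19 carriers tested in that list were not called, and its median was 0.07. Slc25a32, the mitochondrial folate carrier and no member of that list, was also raised (fold change 1.38, adjusted p = 0.039).

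Ulk1, the kinase that starts autophagy, had the smallest p. It was at 18.4, 53.4 and 37.5 CPM with GKRP-446P and at 34.2, 103 and 85.6 CPM with GKRP-446L. The groups overlapped because mouse 1 was low in both, but within animals the differences were 0.89, 0.94 and 1.19 on the log2 scale (fold change 2.03, 95% interval 0.75 to 1.29 on the log2 scale, adjusted p = 0.00102). Glul, glutamine synthetase, was at 56.7, 27.4 and 45.4 CPM against 83.8, 52.6 and 90.8 CPM (fold change 1.79, adjusted p = 0.0415).

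For 19 of the 22 raised genes the GKRP-446L mean lay between the means with GKRP-446P and with GK alone. The exceptions were Rrm2b, Cln8 and Krt8-ps, where it lay above GK alone. It was above the untreated mean for each of the 22. Of the 22, 9 were not called raised by GK alone against untreated cells: Slc25a32 and those described next. Shroom1, an actin-binding protein, was at 30.8, 44.6 and 27.3 CPM against 60.7, 83.6 and 63.6 CPM (fold change 2.05, adjusted p = 0.0149). Rrm2b, a ribonucleotide reductase subunit, was at 0.766, 1.93 and 2.65 CPM against 2.79, 5.19 and 4.96 CPM (fold change 2.48, adjusted p = 0.019), while it was at 2.47, 4.05 and 5.44 CPM in untreated cells. Its level with GKRP-446L was thus near the untreated one and its GKRP-446P level below both. Cln8, a protein of the endoplasmic reticulum, was at 37.1, 75.1 and 42.4 CPM against 51.8, 103 and 78.8 CPM (fold change 1.52, adjusted p = 0.00403). Igfbp1, which binds insulin-like growth factors and is repressed by insulin, was at 69.5, 148 and 107 CPM against 99.7, 284 and 174 CPM (fold change 1.64, adjusted p = 0.0242). It was the called member of 13 insulin and glucocorticoid targets tested, whose median was 0.09.

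Tiparp, a mono-ADP-ribosyltransferase induced by the aryl hydrocarbon receptor, was at 35.7, 58.6 and 56.4 CPM against 62.2, 85.4 and 69.3 CPM (fold change 1.46, adjusted p = 0.0255). Ero1a, an oxidase of the endoplasmic reticulum, was at 131, 325 and 199 CPM against 173, 454 and 277 CPM (fold change 1.37, adjusted p = 0.031), and Adm, which encodes the peptide adrenomedullin, was at 11.8, 38.3 and 25.9 CPM against 31.4, 63.4 and 55.1 CPM (fold change 2.10, adjusted p = 0.0415). Both overlapped between groups and were higher within each animal. Krt8-ps, a keratin 8 pseudogene (chr7:23056550-23057494), was at 0.153, 0.176 and 0 CPM with GKRP-446P and at 257, 0.537 and 48.2 CPM with GKRP-446L. Its call came from mice 1 and 3, the same libraries that stand apart in effective length, and its parent gene Krt8 was at 3901, 4889 and 3759 CPM against 2733, 5833 and 4484 CPM. Reads shared with Krt8 make the Krt8-ps value uncertain.

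The 3 lowered genes included 2 transcription factors of liver development. Hhex, a homeobox factor, was at 65.1, 47.2 and 55.5 CPM with GKRP-446P and at 48.3, 34.9 and 34.0 CPM with GKRP-446L (fold change 0.697, adjusted p = 0.031). Foxa2, a pioneer factor of hepatocyte enhancers, was at 17.9, 16.9 and 18.6 CPM against 10.6, 10.7 and 13.6 CPM, without overlap (fold change 0.655, adjusted p = 0.0393). It was the called member of 15 hepatocyte transcription factors tested, while Hnf4a was at 477, 620 and 478 CPM against 576, 610 and 405 CPM (log2 difference 0.00, 95% interval -0.21 to 0.21). Mtmr11, a myotubularin-related protein, was at 26, 25.8 and 25.7 CPM against 21.1, 17.7 and 12.5 CPM, without overlap (fold change 0.659, adjusted p = 0.039).

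Chka, choline kinase alpha, was lower by a similar amount in each animal, with log2 differences of -0.47, -0.46 and -0.48, and its adjusted p was 0.0118, but its fold change of 0.722 did not reach 0.7. Plin2, the lipid droplet coat protein, was at 1410, 834 and 897 CPM against 1010, 705 and 747 CPM (log2 difference -0.33, adjusted p = 0.0623). The next genes by p had log2 differences of -0.34 (Cdk2, a kinase of the G1/S transition), -0.47 (Otud1), -0.69 (Eapp), -0.56 (Flad1) and -0.45 (Rad17), with adjusted p values from 0.0835 to 0.128.

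**Figure D3:**
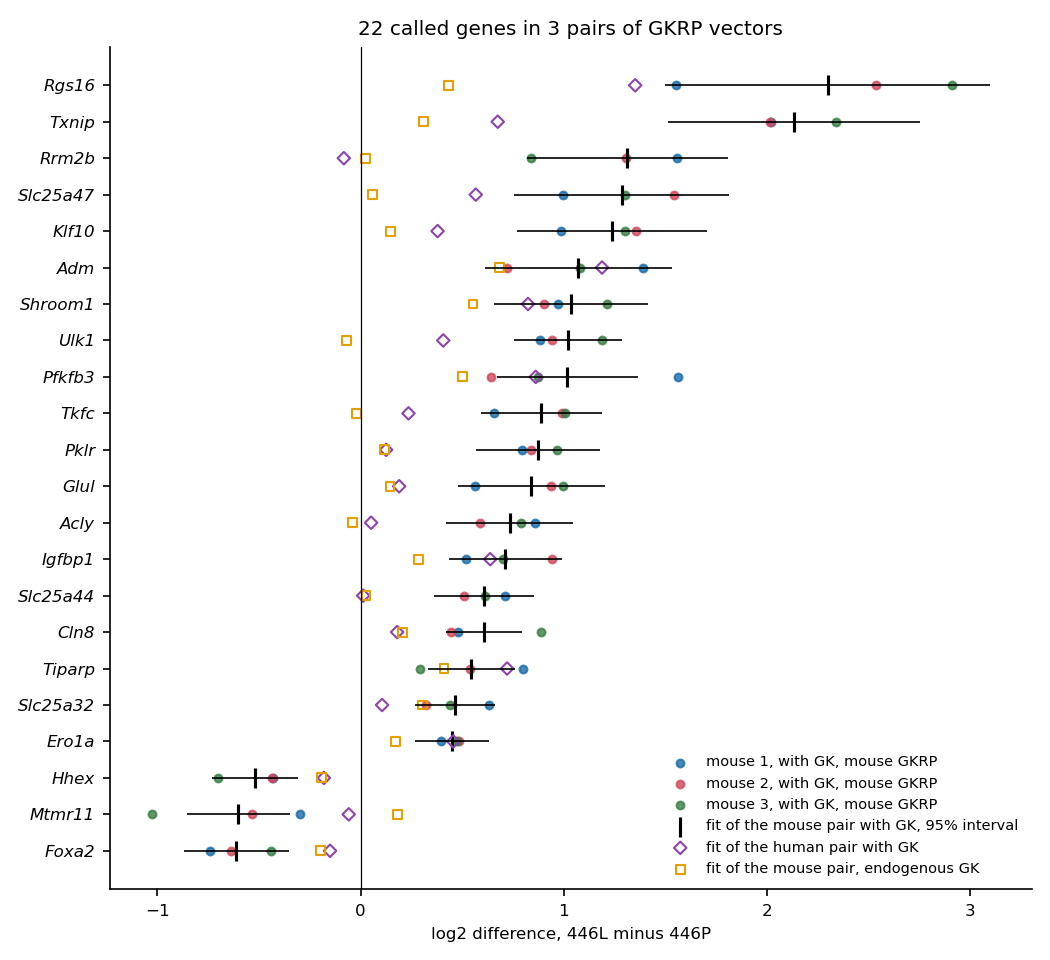
log2 difference of 446L minus 446P (x axis) for 22 of the called genes (y axis), with points for mice 1, 2 and 3, a black bar and line for the fit and its 95% interval in the mouse GKRP pair with GK, diamonds for the human GKRP pair with GK and squares for the mouse pair at endogenous GK. The points of the 3 mice lie on the same side of 0 for each gene. The squares lie nearer to 0 than the black bars, whose comparison was the one used to choose the genes.

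Genes raised by the GK vector alone give a set chosen by a contrast between other samples, although the 6 libraries share the fit, its dispersion and its mouse terms. In that fit, 42 of the 12176 genes (0.345%) were raised by GK alone relative to untreated cells. Between the GKRP vectors 38 of the 42 had a difference above 0 (90.5%, against 51.5% of all genes tested), 13 were raised and none was lowered. Their median log2 difference was 0.53, with medians of 0.46, 0.49 and 0.72 in mice 1, 2 and 3, and the median of the other 12134 genes was 0.01. For 38 of the 42 the mean level with GKRP-446L lay between the means with GKRP-446P and with GK alone. The 4 exceptions below 0 included Mcm3 (-0.12), Rell1 (-0.03) and F7 (-0.00). Across the 42 genes, the size of the GK effect and of the GKRP-446L minus GKRP-446P difference had a Pearson r of 0.84 and a Spearman rho of 0.80, given as a description, since the genes share libraries, animals and measurement depth. Relative to GK alone, the median of the 42 was -0.98 with GKRP-446P and -0.43 with GKRP-446L, 2 comparisons that share the GK samples.

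**Figure D4:**
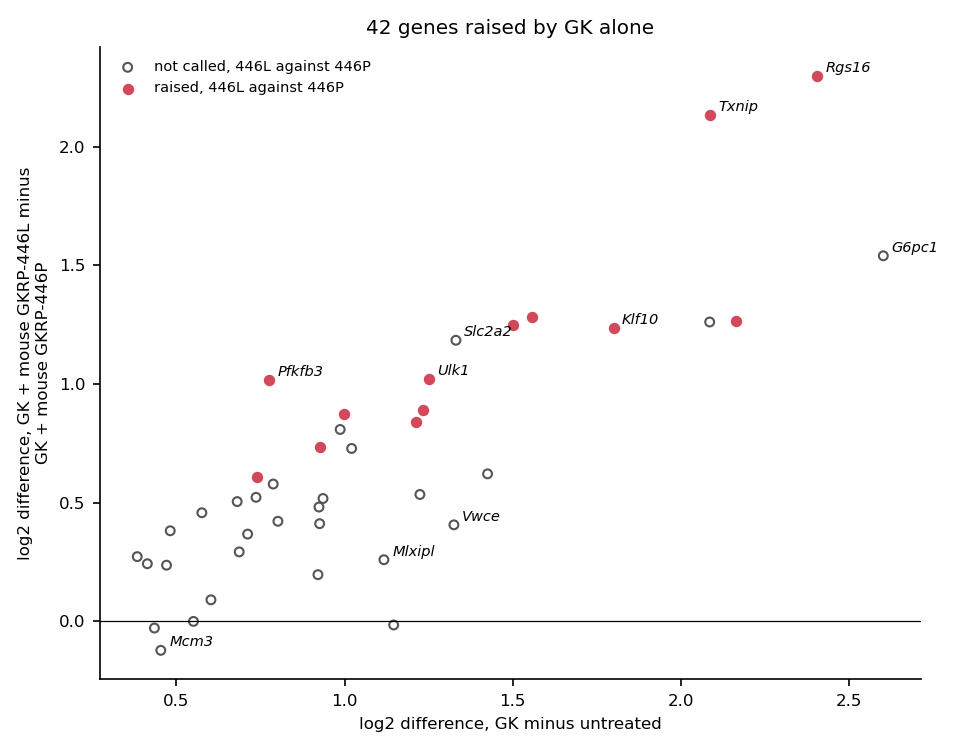
The 42 genes raised by GK alone, with the log2 difference of GK minus untreated (x axis) and of GK + mouse GKRP-446L minus GK + mouse GKRP-446P (y axis). The 13 genes raised by GKRP-446L relative to GKRP-446P are filled, Rgs16 and Txnip stand highest, and Mlxipl lies at 0.26 although GK raised it by 1.12.

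Among the lists not taken from the study text, the glucose-responsive list stood farthest from the median of all genes, which was 0.01. Of its 30 genes tested, 29 had a difference above 0 and 8 rose (26.7% against 0.181% of all genes), with a median of 0.61 and medians of 0.71, 0.45 and 0.76 in mice 1, 2 and 3. Of 14 genes that the study text names as raised by GK, which were chosen on these samples and are not independent evidence of direction, 14 were above 0 and 8 rose (median 1.24). The 6 that did not pass were Slc2a2, G6pc1, Arrdc4, Angptl8 (1.26, adjusted p = 0.292), Slc16a1 (0.24, adjusted p = 0.251) and Lhx6 (0.44, adjusted p = 0.677).

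Lists outside glucose metabolism had few or no calls. None of 24 cholesterol synthesis and uptake genes was called (median -0.05), and Hmgcs1, Cyp51 and Msmo1, among its most abundant members, differed by -0.15, -0.15 and -0.04. Among 42 DNA replication and S phase genes none was called, although 35 had a difference below 0 (48.5% of all genes tested did) and the median was -0.19, with -0.26, -0.14 and -0.07 in mice 1, 2 and 3. Both vectors held that list far above GK alone (medians 1.4 with GKRP-446P and 1.16 with GKRP-446L, against the same GK samples). Pcna, the replication clamp, was at 202, 134 and 160 CPM with GKRP-446P and 143, 122 and 152 CPM with GKRP-446L, against 64.9 to 86.6 CPM with GK alone. Rrm2, a ribonucleotide reductase subunit of the same list, went the other way, at 31.4, 145 and 64.4 CPM against 52.8, 181 and 94.5 CPM (log2 difference 0.56, adjusted p = 0.415). No gene was called among those of fatty acid oxidation and ketogenesis (21 tested, median -0.01), glycogen metabolism (13, 0.11), lipoproteins and lipases (20, 0.02), bile acid synthesis and transport (13, 0.16), cytochrome P450 drug metabolism (16, 0.06), p53 targets (18, 0.09), interferon response (19, -0.09), NF-kB response (12, 0.03), acute phase (20, -0.08), the ATF4 and unfolded protein response (20, 0.00), immediate early genes (16, 0.12) and mitosis (5, -0.21).

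**Figure D5:**
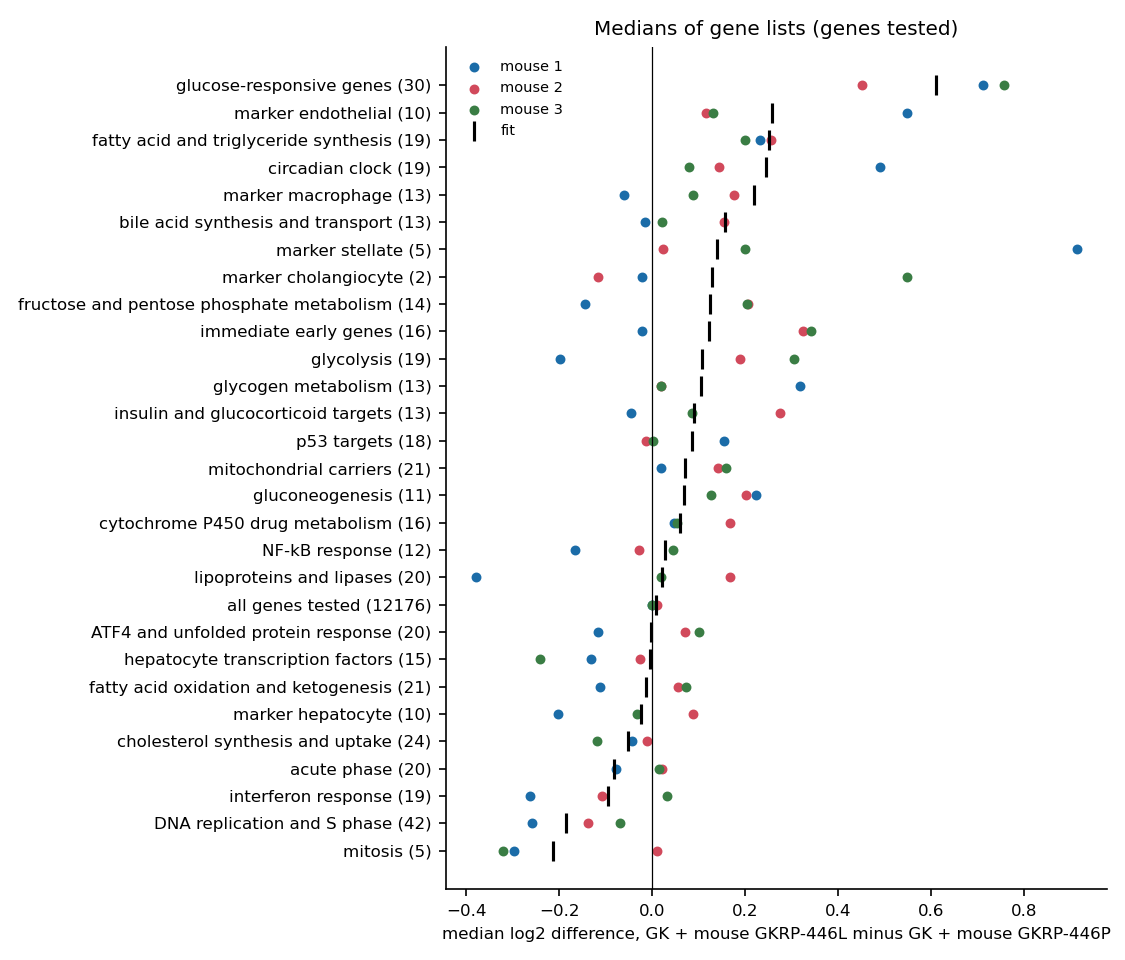
Median log2 difference of GK + mouse GKRP-446L minus GK + mouse GKRP-446P (x axis) for gene lists and for all genes tested (y axis, number of genes tested in parentheses), with points for mice 1, 2 and 3 and a black bar for the fit. Left out are the 14 genes named in the study text, the 42 genes raised by GK alone (median 0.53) and a list of 22 hypoxia-induced genes (0.35). The glucose-responsive list lies at 0.61, apart from the other lists shown, whose medians range from -0.21 to 0.26.

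The same amino acid change was measured in 2 other settings that share no sample with this one. With human GKRP and GK, 15 genes (0.123%) rose and 1 (0.00821%) fell with 446L, and of the 22 genes raised in the mouse pair 21 had a difference above 0 there (51.6% of all genes did), with a median of 0.43 against 1.02 in the mouse pair. Pfkfb3 (0.86), Adm (1.19), Tiparp (0.72) and Ero1a (0.46) were raised in both. Txnip differed by 0.68 (adjusted p = 0.698), Rgs16 by 1.35 (adjusted p = 0.384) and Pklr by 0.13 (adjusted p = 0.87) in the human pair. In a test of the difference between the pairs 0 of 12176 genes passed with edgeR, with 1231 (10.1%) at an unadjusted p below 0.05, among them 12 of the 22. The 22 were chosen for their difference in the mouse pair, which is part of this test. That choice favours a larger median in the mouse pair and small p values here, so both are descriptions only. DESeq2 with the mouse term called 16, none of them among the 22 and each with a log2 difference over 5 in size. The p values do not show that the pairs act alike. For Pklr the difference between pairs was 0.75 (adjusted p = 0.477) and for Txnip 1.46 (adjusted p = 0.477).

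At endogenous GK, where the mouse GKRP vectors were given without the GK vector, 0 genes were called, with 455 (3.74%) at an unadjusted p below 0.05. The 22 genes had a median difference of 0.19 there, with 19 above 0 (49.7% of all genes were). Ulk1 differed by -0.07, Tkfc by -0.02, Acly by -0.04 and Txnip by 0.31. The difference between the settings, with GK minus at endogenous GK, passed for 0 genes with edgeR (693, or 5.69%, at an unadjusted p below 0.05, among them 17 of the 22), and the smallest adjusted p was that of Ulk1 (difference 1.09, adjusted p = 0.0712). DESeq2 with the mouse term called 22 genes, of which Ulk1, Txnip and Tkfc were also raised in the main comparison and 17 had a log2 difference over 5 in size. The genes raised in the main comparison were chosen on the mouse pair with GK, which is part of this test too. Their smaller median at endogenous GK and their small p values are thus descriptions only. The glucose-responsive list had medians of 0.11 in the human pair and 0.06 at endogenous GK, and the 42 genes raised by GK had 0.21 and 0.03.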

How the data were processed

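RNA was extracted from 36 hepatocyte cultures, and libraries were sequenced by the submitters. Per the submitters' processing notes and methods, reads were checked with FastQC and quantified with Salmon 1.4.0 against Gencode M26 transcripts (GRCm39). The deposited files give, per transcript, the authors' expected counts and the authors' TPM values. Expected counts were summed here to genes with Gencode M39 (137570 of 139225 transcripts matched, 98.8%) and rounded. The 2 cultures per mouse of untreated and of GK were summed, leaving 30 samples in 10 conditions.

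Genes passing filterByExpr were tested with edgeR 4.0.16 (R 4.3.3), using TMM scaling, a quasi-likelihood F test, condition and mouse terms over the 30 samples, and Benjamini-Hochberg adjustment over the genes tested. Each SE is the size of the log2 difference divided by the square root of F. Levels are TMM-scaled CPM, and differences within a mouse are of log2 CPM with a prior count of 2. The call rule (adjusted p below 0.05 with a change by a factor of 1.3 or more upward, or to 0.7 or less) follows the methods of the study. Same-numbered samples are from the same animal, and their deviations from the group means correlated at 0.18, 0.35 and 0.11. Between different animals these correlations ran from -0.31 to 0.12. The highest, GK+mL of mouse 1 with GK+mP of mouse 3, was above the same-animal value of mouse 3. Deviations within a group sum to 0, so the same-animal and different-animal values are not independent. The edgeR p-values measure the spread left between samples of 3 animals after the condition and mouse terms, pooled over the 30 samples. Most of these samples lie outside the comparison, and those with a GKRP vector are single cultures. Libraries of a group differed by 29.7 to 82.7 in chi-square per degree of freedom, so none was a repeat of another. Depth sets the precision of low genes, and the counting error of reads is within the fitted spread.

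Alternatives were DESeq2 1.42.0, RLE scaling, other filters, no block, other sample sets, transcript-length offsets, other fold thresholds and leaving out each animal. The comparison, the 24 gene lists, the 5 marker lists and the tests were chosen with earlier results of these data known. Genes named are Gckr, called genes (at most 15 in each direction by adjusted p, filled up to 10 by the smallest p), called and the most abundant members of each list, and genes that the study text names. Slc25a32, Adm, Glul, Mlxipl, Krt8, Rell1, F7 and Mcm3 fall outside this rule and were named after their values were seen. Some genes that the rule names are not reported here.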

Additional observations from a re-analysis of the deposited data

Results flagged for a closer look

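Among the 6 cultures with the GK vector alone, 1 culture of mouse 3 had Gckr at 1420 CPM (by library total), far from the other 5 at 53.9 to 96.1 CPM. Its gap to the nearest culture exceeded the critical value of Dixon's test for 6 samples, which chance exceeds in about 1 of 20 groups. No GKRP vector is named for that culture. It is not a sample of the comparison of GKRP-446L with GKRP-446P. As part of the 30 samples fitted together it enters the spread and the mouse terms of that comparison, and its part in the calls was not tested. It is also part of the GK samples that defined the genes raised by GK alone. Without it that set held 40 genes in place of 42, with a median difference between the GKRP vectors of 0.56 in place of 0.53.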

How the results depend on the processing

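The counts of 22 raised and 3 lowered genes were within 1.5 times of these under RLE scaling, a stricter filter and other fold thresholds. They were 2 and 0 without the replicate block, 66 and 21 with DESeq2 and the block, 12 and 7 with DESeq2 and no block, 12 and 0 over the 36 cultures with the block, and 0 and 0 in the 6 samples alone or with transcript-length offsets. Without a filter no gene was lowered, that is 0. Leaving out 1 mouse gave 1 to 9 raised and 0 to 1 lowered genes. The cause of these changes was not tested. The fits without 1 mouse or on the 6 samples alone also rest on fewer samples. The test of the mouse against the human pair called 0 genes with edgeR and 16 (block) or 15 (no block) with DESeq2, and the test of GK against endogenous GK called 0, 22 and 19, and 1 without mouse 2 (leaving out 1 mouse gave 0 to 1). The median of the genes raised by GK was 0.53, 0.89 without the block (a set of 1 gene), 1.81 with length offsets (2 genes), 0.33 for a set of 252 genes from GK against 5 conditions, 1.10 for a set of 18 genes past a fold of 2, and 0.57 to 1.06 on leaving out 1 mouse (39, 1 and 8 genes). With length offsets Chka reversed to 0.73 and Eapp to 0.67. The setting without the GK culture of high Gckr, with a median of 0.56, was chosen after seeing the data. Depth limits statements on genes of few CPM, such as Rrm2b and G6pc1.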

Other observations

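A list of 22 genes known to be induced by hypoxia had a median difference above that of all genes (0.01) in both pairs with GK, while most of its members did not pass the test. It was written after the data were seen, so its counts are a description, and 20 were tested. In the mouse pair 17 of the 20 had a difference above 0 (51.5% of all genes did) and 3 were raised (Adm, Ero1a and Pfkfb3, against 0.181% of all genes), with a median of 0.35 and medians of 0.37, 0.23 and 0.36 in mice 1, 2 and 3. In the human pair 20 were above 0 (51.6% of all genes) and 7 were raised (0.123%), with a median of 0.38, and at endogenous GK the median was 0.17 with 16 above 0 and none called. Vegfa, an angiogenic growth factor, was at 66.6, 259 and 148 CPM with mouse GKRP-446P and at 134, 311 and 201 CPM with GKRP-446L (log2 difference 0.57, adjusted p = 0.115), and differed by 0.87 in the human pair (adjusted p = 0.00949). Slc2a1, the ubiquitous glucose transporter GLUT1, was at 105, 130 and 117 CPM against 133, 187 and 171 CPM, without overlap (log2 difference 0.47, adjusted p = 0.115), and differed by 0.55 in the human pair (adjusted p = 0.0557). Egln3, a prolyl hydroxylase of the hypoxia-inducible factors, was at 105, 394 and 234 CPM against 156, 466 and 307 CPM (0.41, adjusted p = 0.455) and differed by 0.82 in the human pair (adjusted p = 0.0304).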
